A study of Homo sapiens with 12 samples.

Results

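The transcripts described here encode the kinetochore and the spindle checkpoint, 39 of the 60648 genes in the deposited count table. They were taken as a named list of inner and outer kinetochore subunits and checkpoint proteins, and found in the table by gene ID and symbol. The list was drawn up by function, with earlier results of these data known. Each of the 39 matched exactly 1 gene ID, and each passed the filter on low counts that left 18289 genes for testing. RNA came from HCT116, a human colon carcinoma line, in 4 groups of 3 libraries: MTHFD2 wild type and MTHFD2 knock-out, each taken at the start (initial) and again 2 months of culture later (final). MTHFD2 is an enzyme of folate metabolism, and the series title ties it to centromeres and mitosis, so the genotype comparison asks whether the RNAs of the machinery of chromosome attachment differed without it. The knock-out was made with CRISPR-Cas9 and is 1 isolated clone, its initial RNA being taken directly after the clone was made, and all 4 groups grew in the same serum-supplemented medium with no drug named in the labels. Loss of MTHFD2 and other properties of that clone therefore cannot be told apart, and p-values measure the spread between 3 libraries a group, which the series calls biological replicates of a condition.

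The kinetochore is the protein assembly on each centromere that holds a chromosome to the microtubules of the spindle. Its inner layer, the constitutive centromere-associated network (CCAN, the protein CENP-C with CENP-H to CENP-X), sits on centromeric chromatin throughout the cell cycle. Its outer layer joins the Mis12 and Knl1 complexes, which form a platform, to the Ndc80 complex, which grips the microtubule with help from the Ska complex. On chromosomes that are not yet attached, the kinases TTK (MPS1) and BUB1 and the proteins BUBR1 (gene BUB1B), BUB3, MAD1 and MAD2 form the spindle checkpoint, which holds back anaphase, and the RZZ complex with Spindly and the motor CENP-E form an outer corona. Many of these genes are transcribed late in the cell cycle, and the cell cycle homology region (CHR), the CCAAT box bound by NF-Y and E2F sites are the promoter elements best known for that timing.

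Promoter sequence is shown for 8 members. The first 5 passed the threshold in at least 1 comparison, and the other 3, BUB1, CENPF and MAD2L1, passed it in none. CENPO, CENPP, CENPI and DSN1 also passed it and are not shown. Each line runs 5′ to 3′ in the gene's direction from 120 bases before the annotated start to 30 bases after it, and capitals mark a CHR element, a CCAAT box or an E2F core on either strand.
ZWINT: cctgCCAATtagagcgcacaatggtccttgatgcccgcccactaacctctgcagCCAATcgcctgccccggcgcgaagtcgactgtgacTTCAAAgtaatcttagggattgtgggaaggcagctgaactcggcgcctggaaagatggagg
SKA3: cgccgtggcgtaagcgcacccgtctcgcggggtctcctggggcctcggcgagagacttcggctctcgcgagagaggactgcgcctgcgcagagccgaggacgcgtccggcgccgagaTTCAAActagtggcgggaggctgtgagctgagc
BUB1B: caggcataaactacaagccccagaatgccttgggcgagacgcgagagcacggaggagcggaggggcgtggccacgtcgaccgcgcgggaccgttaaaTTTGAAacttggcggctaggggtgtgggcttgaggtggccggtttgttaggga
SKA1: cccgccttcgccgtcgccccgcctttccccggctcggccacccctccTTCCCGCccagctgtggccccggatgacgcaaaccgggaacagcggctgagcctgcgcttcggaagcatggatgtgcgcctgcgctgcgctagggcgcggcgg
CENPU: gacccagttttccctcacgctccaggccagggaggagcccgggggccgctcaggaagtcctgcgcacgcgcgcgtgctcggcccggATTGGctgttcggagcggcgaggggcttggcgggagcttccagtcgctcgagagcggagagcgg
BUB1: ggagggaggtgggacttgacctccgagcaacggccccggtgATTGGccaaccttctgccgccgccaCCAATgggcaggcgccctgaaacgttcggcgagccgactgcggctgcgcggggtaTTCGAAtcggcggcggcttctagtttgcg
CENPF: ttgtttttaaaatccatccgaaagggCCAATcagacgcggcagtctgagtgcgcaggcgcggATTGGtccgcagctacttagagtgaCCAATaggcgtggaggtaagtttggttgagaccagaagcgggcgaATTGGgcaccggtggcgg
MAD2L1: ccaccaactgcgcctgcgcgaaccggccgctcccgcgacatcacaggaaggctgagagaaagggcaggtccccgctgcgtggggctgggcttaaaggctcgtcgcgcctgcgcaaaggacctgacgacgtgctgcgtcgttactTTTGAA

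These stretches come from RefSeq promoter windows on GRCh38.p14. They lie at chr10:56361230-56361379 (minus strand) for ZWINT, at chr13:21176523-21176672 (minus strand) for SKA3, at chr15:40160949-40161098 (plus strand) for BUB1B, at chr18:50374926-50375075 (plus strand) for SKA1 and at chr4:184734067-184734216 (minus strand) for CENPU. The other 3 lie at chr2:110678034-110678183 (minus strand) for BUB1, at chr1:214603075-214603224 (plus strand) for CENPF and at chr4:120066819-120066968 (minus strand) for MAD2L1. The letters searched were TTTGAA or TTCGAA for the CHR element, CCAAT for the CCAAT box and TTCCCGC or TTGGCGC for the E2F core, on both strands, so that TTCAAA and ATTGG are the first and second motif read from the other strand. Matches may overlap. With position 1 as the start, ZWINT held a CHR element at -31 and CCAAT boxes at -116 and -66, and further upstream, outside the printed stretch, an E2F core at -158. The CHR element lay at -3 in SKA3, at -23 in BUB1B, at 2 in BUB1 and at 25 in MAD2L1, while SKA1 held an E2F core at -73 and CENPU a CCAAT box at -34. In CENPF, 4 CCAAT boxes lay at -94, -58, -33 and 13. Also outside the printed stretches, SKA1 held a CHR element at 35, CENPF a CHR element at 41 and MAD2L1 a CCAAT box at -229.

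Of the 39 members, 32 matched a window of 300 bases, 250 before the start and 50 after it. A CHR element was found in 15 of them (46.9%), against 11.2% of the 12088 windows of tested genes and 16.6% of all 27305 windows. A CCAAT box was found in 18 (56.2%, against 36.1% and 35.7%), an E2F core in 9 (28.1%, against 14.1% and 9.33%), and a CHR element together with a CCAAT box in 9 (28.1%, against 4.71% and 6.58%). Members with and without these letters are found on both sides of the results that follow: the windows of CENPI, CENPP and DSN1 held none of the 3 motifs. A match describes the letters of the window and is not evidence that a factor binds there.

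Library totals were 38597809 to 40017561 counts, and libraries of 1 group had correlations of 0.9895 to 0.9955 over all tested genes. MTHFD2 itself was at 319 to 457 CPM (counts relative to the library total after TMM scaling) in the wild-type libraries and at 123 to 155 CPM in the knock-out libraries, so that every knock-out library lay below every wild-type library. Of 6 markers of colon epithelium, 5 exceeded 1 CPM and VIL1 did not, and their summed level was 2613 to 3217 CPM in the initial wild type, 3045 to 3189 in the final wild type, 2452 to 2689 in the initial knock-out and 2201 to 2572 in the final knock-out. Leukocyte markers summed to at most 2.48 CPM, endothelial markers to at most 3.46 CPM, and fibroblast markers to 56.8 to 78.8 CPM in wild-type libraries and 37.5 to 59.3 in the knock-out libraries, nearly all of it COL1A1, with DCN and LUM at 0 counts, as was CD3E among the leukocyte markers. The part of these differences in the results was not tested. In several libraries most members lay at 1 end of their group: the initial wild-type replicate 2 was the highest of its group for 27 of the 39 members (36.6% of all tested genes), the initial knock-out replicate 3 for 22 (33.5%) and the final knock-out replicate 1 for 23 (28.7%). The final knock-out replicate 2 was the lowest for 26 members (35.6%) and the initial knock-out replicate 1 for 25 (38.1%). Calls of members that change without a library are given with and without it.

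Most of the 39 kinetochore and checkpoint transcripts were at similar levels in knock-out and wild type. The clearest exception among them was ZWINT, the Knl1 partner that recruits the RZZ complex. CENPC, a CCAN gene outside the 39, was lower in the knock-out, with log2 differences of -0.66 and -0.69 at the initial and final harvest. At the initial harvest ZWINT rose 1.42-fold in the knock-out and SKA1, a subunit of the Ska complex, fell to 67.7% of wild type. At the final harvest ZWINT rose 1.77-fold, and CENPO, CENPI and CENPP of the inner kinetochore rose by 1.24-fold, 1.19-fold and 1.30-fold. A gene was called at a Benjamini-Hochberg adjusted p under 0.05 in edgeR's quasi-likelihood test over all tested genes, and every adjusted p given here is from that test unless DESeq2 is named. At the initial harvest 2 of the 39 members were called, 1 higher and 1 lower, where 19.9% of all tested genes were called, 8.55% higher and 11.3% lower. At the final harvest 4 of 39 were called, all higher, where 18.5% of all tested genes were called, 8.38% higher and 10.2% lower. No member was called lower at the final harvest by edgeR or by DESeq2, and 1 member, CENPU, was lower at an unadjusted p under 0.05 (log2 fold change -0.24, adjusted p 0.0961). Without the final wild-type replicate 1, CENPU was called lower there by edgeR. RNA per cell and the share of cells in mitosis cannot be told apart in bulk libraries.

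Leaving out 1 library moved these counts. Without the initial wild-type replicate 2, 8 members were called at the initial harvest, 5 higher (ZWINT, BUB1B, CENPM, CENPN and CENPX) and 3 lower (SKA1, CENPE and KNTC1), where 24.6% of all tested genes were called. Without the final wild-type replicate 1, 4 members were called there, CENPU and KNTC1 being added, where 21.3% of all tested genes were called. At the final harvest ZWINT was the 1 member called without the final wild-type replicate 2, the final wild-type replicate 3 or the final knock-out replicate 1, where 13.7% to 14.3% of all tested genes were called. There 2 members, ZWINT and CENPO, were called without the initial wild-type replicate 3, any 1 of the initial knock-out replicates or the final knock-out replicate 3. In those omissions 15.5% to 17.2% of all tested genes were called. ZWINT was called in the knock-out at both harvests under each omission of this paragraph.

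The median log2 fold change of the 39 members was -0.0031 at the initial harvest and 0.0608 at the final harvest, beside medians of 0 and -0.0008 over all tested genes. Members were on both sides of 0 at each harvest, 18 above and 21 below at the first and 22 above and 17 below at the second. Of the 37 members not called at the initial harvest, 33 had a 95% confidence interval that lay within 1.5-fold in either direction, and CENPM, CENPS, CENPW and MAD1L1 did not. Of the 35 not called at the final harvest, 33 had such an interval, the exceptions being CENPS and MAD1L1. The intervals therefore bound most members not called to within 1.5-fold. That range also holds called values, such as 1.24-fold for CENPO and 1.19-fold for CENPI at the final harvest. A larger difference was not excluded for the exceptions, of which MAD1L1 had 6 to 18 counts a library.

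**Figure D1:**
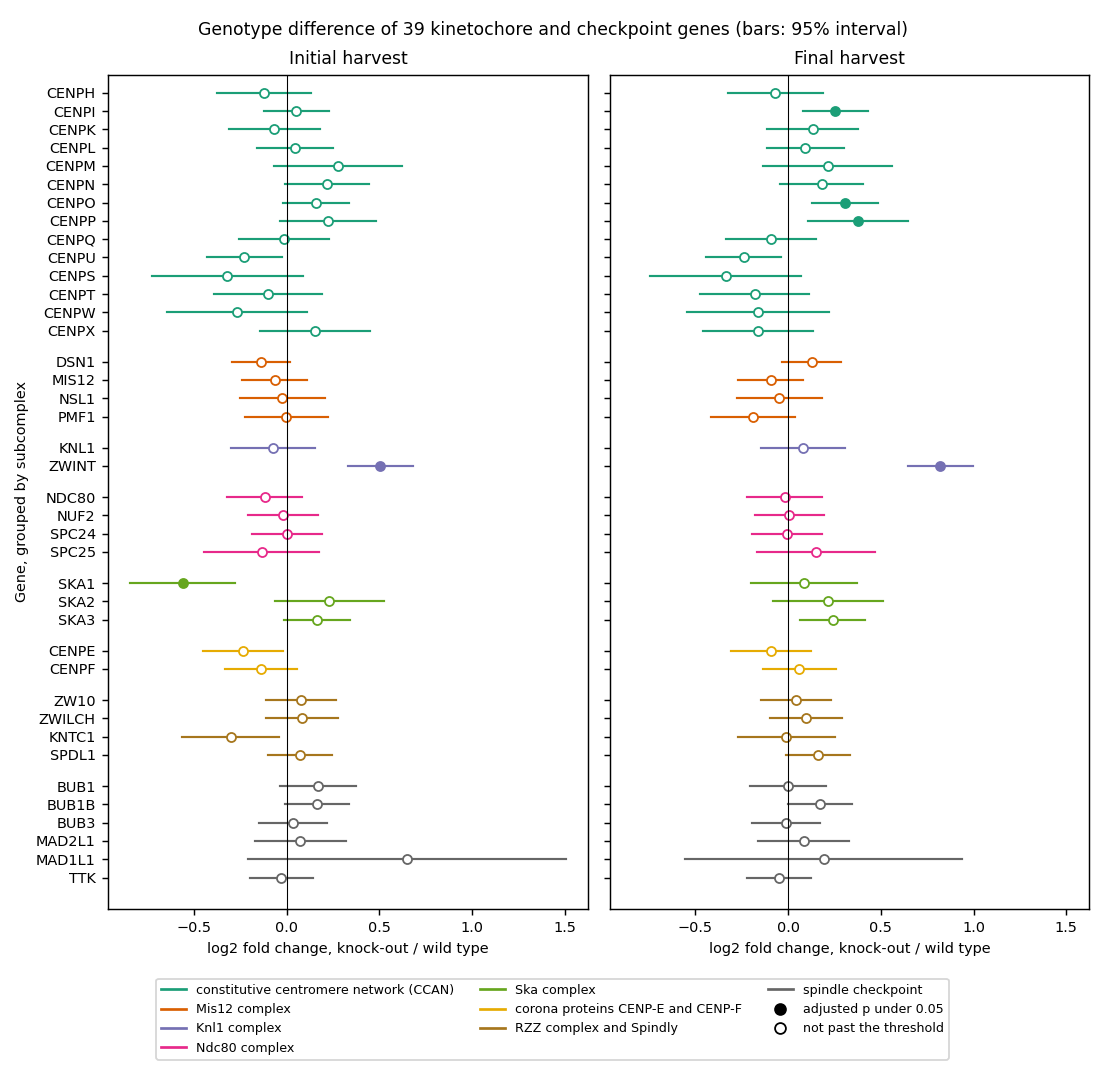
Log2 fold change of knock-out over wild type for each of the 39 members at the initial harvest (left) and the final harvest (right), with 95% confidence intervals as bars, genes in rows and subcomplexes in colours; filled points passed an adjusted p under 0.05. ZWINT stands at 0.50 and 0.82 while most points lie near 0, and SKA1 is at -0.56 in the left panel and at 0.09 in the right one.

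Averaged over both harvests, a comparison that uses all 12 libraries, 6 members were called. ZWINT, CENPO, CENPP, SKA3 and BUB1B were higher and CENPU was lower, where 30.1% of all tested genes were called, 14% higher and 16.1% lower. The median of the members was 0.0025, beside 0.0030 over all tested genes. Of the 33 members not called, 31 had a 95% interval within 1.5-fold, CENPS and MAD1L1 being the exceptions. Without the initial wild-type replicate 2, 10 members were called, where 32.2% of all tested genes were, and the 4 added were CENPM, CENPN, SPDL1 and CENPE. Without the initial wild-type replicate 3 or the final wild-type replicate 3 there were 4, CENPO, SKA3, ZWINT and CENPU, where 25.2% and 26.1% of all tested genes were called. With the initial knock-out replicate 3 left out, 3 higher and 2 lower members were called, and 2 lower members also without the final wild-type replicate 1 or the final knock-out replicate 1, CENPS being the member added. CENPI was also called without the final wild-type replicate 1 or the initial knock-out replicate 1, and CENPN without the final knock-out replicate 2. In these further omissions 25.7% to 29.4% of all tested genes were called.

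In the Knl1 complex, the scaffold KNL1 recruits the checkpoint kinases and ZWINT (ENSG00000122952.17, GRCh38 chromosome 10, 56357227 to 56361273, minus strand) joins it to the RZZ complex. ZWINT was at 120.5, 142 and 115 CPM in the initial wild type, at 103, 97.0 and 97.4 in the final wild type, at 186, 172 and 178 in the initial knock-out and at 176, 171 and 178 in the final knock-out. All 6 knock-out libraries lay above all 6 wild-type libraries, which held for no other member and for 5.5% of all tested genes, and no member had all 6 below, which held for 7.29%. The initial wild-type replicate 2 was the highest wild-type library and was still below the lowest knock-out library.

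Group means of ZWINT were 126 ± 14.1 and 99.2 ± 3.45 CPM (wild type) and 179 ± 6.62 and 175 ± 3.66 CPM (knock-out), initial and final (SD, n = 3). The log2 fold change of knock-out over wild type was 0.50 at the initial harvest (SE 0.0826, adjusted p 3.47e-04), 0.82 at the final harvest (SE 0.0831, adjusted p 2.18e-06) and 0.66 on average (SE 0.0586, adjusted p 2.34e-07). Leaving out each library in turn gave 0.44 to 0.60, 0.79 to 0.85 and 0.63 to 0.71. No annotated exon of another gene in the table overlaps ZWINT. KNL1 itself was at 87.2 ± 13.6, 90.7 ± 10.6, 82.8 ± 0.974 and 95.8 ± 5.73 CPM in the same order of groups, wild type before knock-out, and its average log2 difference was 0.0025 (adjusted p 0.985). The pair that forms this complex therefore differed in its values: the knock-out exceeded the wild type in ZWINT beyond the spread of the libraries, and in KNL1 the groups overlapped.

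**Figure D2:**
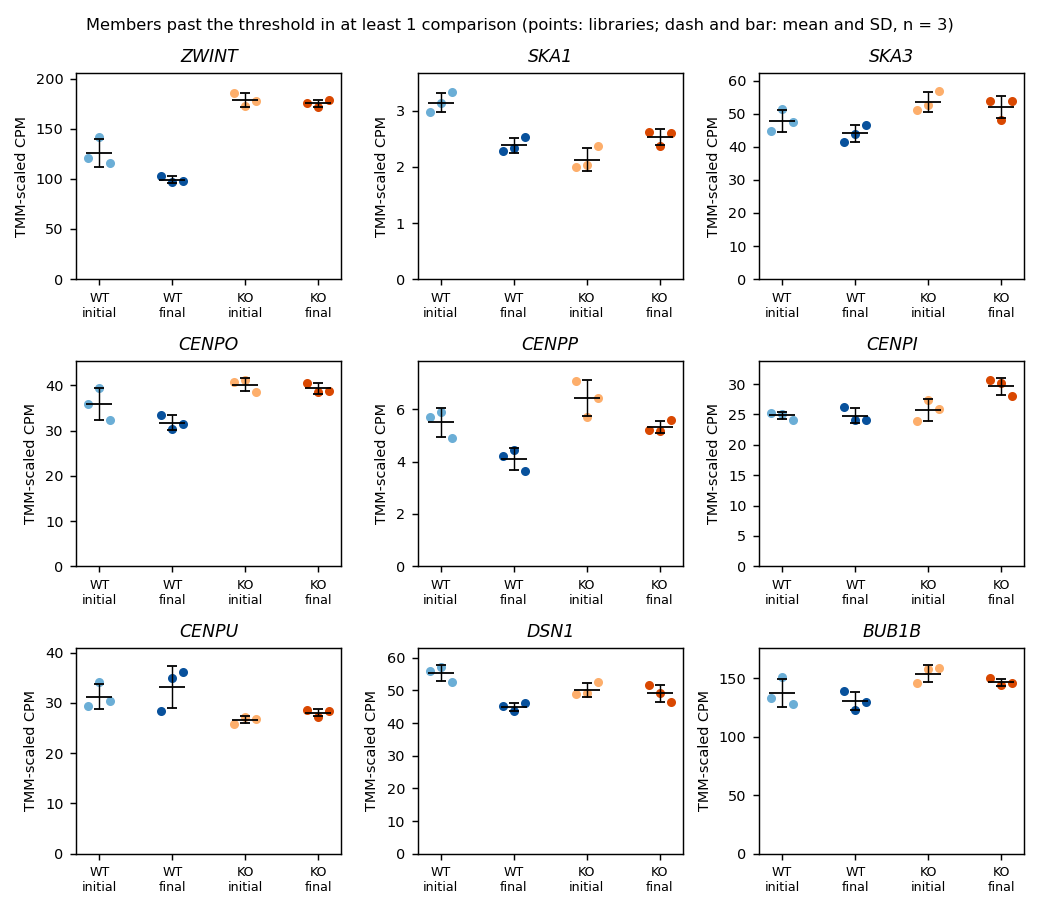
TMM-scaled CPM (vertical axes, each starting at 0) of the members past the threshold in at least 1 comparison, in the 4 groups of 3 libraries; points are libraries, and dashes with bars are the mean and SD. The knock-out points of ZWINT lie between 171 and 186 CPM, above every wild-type point, and in the other panels points of the genotypes overlap at 1 harvest or more, except in DSN1, where the knock-out is lower at the initial and higher at the final harvest.

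The Ska complex tracks depolymerising microtubules together with Ndc80, and its 3 subunits did not have the same values. SKA1 (ENSG00000154839.10, chromosome 18, 50375040 to 50394168, plus strand) was at 2.98, 3.14 and 3.33 CPM in initial wild-type libraries, against 1.99, 2.03 and 2.37 in the initial knock-out, from 79 to 133 counts a library. At the final harvest it was at 2.28, 2.35 and 2.54 CPM in the wild type and at 2.62, 2.37 and 2.61 in the knock-out. The initial groups did not overlap and the final groups did.

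The log2 fold change of SKA1 was -0.56 at the initial harvest (SE 0.133, adjusted p 0.00645), and the highest adjusted p with 1 library left out was 0.0370. At the final harvest it was 0.09 (SE 0.135, adjusted p 0.728). The difference between these, the interaction of genotype and harvest, was 0.65 (SE 0.190, adjusted p 0.133), so a change of the genotype difference was not called, and leaving out single libraries gave adjusted p of 0.0959 to 0.316. SKA3 (ENSG00000165480.16, chromosome 13, 21153595 to 21176552, minus strand), the subunit that carries regulatory phosphorylation of the complex, had the opposite sign on average.

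SKA3 was at 44.7, 51.3 and 47.4 CPM in the initial wild type, 41.5, 44.0 and 46.6 in the final wild type, 51.2, 52.6 and 56.9 in the initial knock-out and 53.9, 48.2 and 53.9 in the final knock-out. The groups touched at the initial harvest, where the highest wild-type library was replicate 2, and were apart at the final one. Its average log2 fold change was 0.20 (SE 0.0590, adjusted p 0.0158), with an adjusted p of 0.0528 without the initial knock-out replicate 3. At the final harvest the log2 fold change was 0.24 (SE 0.0836, adjusted p 0.0573). SKA3 was called there by DESeq2, and by edgeR without the initial wild-type replicate 1 or 2 or the final knock-out replicate 2. SKA2, the third subunit, had an average log2 difference of 0.22 (SE 0.0985, adjusted p 0.101) and was not called. With no filter on low counts SKA2 was called on average. Per length, as CPM divided by annotated exonic length in kilobases (RPKM), SKA1 was at 0.735 to 1.09 in the 4 group means, SKA3 at 14.7 to 17.9 and SKA2 at 17.7 to 21.6. SKA1 was thus the low subunit by level in each group, while the group means of SKA2 and SKA3 differed by less than 1 SD of SKA2 in the final groups.

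In the inner kinetochore, the 14 CCAN genes among the members, which do not include CENPC, gave 0 calls at the initial harvest by edgeR and by DESeq2, with CENPU below an unadjusted p of 0.05, 3 calls at the final harvest and 3 in the average. The medians of the 14 log2 fold changes were 0.0137, 0.0120 and 0.0136, with 7 members above 0 and 7 below in each of these 3 comparisons. CENPO (ENSG00000138092.11, chromosome 2, 24793136 to 24822376, plus strand), CENPP, CENPQ and CENPU belong to 1 subcomplex of the CCAN that is a docking site for the mitotic kinase PLK1. Its members had values of both signs.

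CENPO was at 35.9, 39.4 and 32.3 CPM in the initial wild type, 33.5, 30.3 and 31.4 in the final wild type, 40.7, 41.2 and 38.4 in the initial knock-out and 40.6, 38.6 and 38.7 in the final knock-out. The initial groups overlapped through the wild-type replicate 2, and the final groups did not overlap. Its log2 fold change was 0.31 at the final harvest (SE 0.0845, adjusted p 0.0166) and 0.23 on average (SE 0.0596, adjusted p 0.00672). The final call was lost without the final wild-type replicate 2 (adjusted p 0.0978), the final wild-type replicate 3 (0.0698) or the final knock-out replicate 1 (0.0751), and the average call was kept in each of the 12 omissions. On the opposite strand, ADCY3 shares 27.0% of the exonic bases of CENPO, and ADCY3 was also higher, by 0.32 (log2) at the final harvest with an adjusted p of 0.0122, and by 0.23 averaged over harvests with an adjusted p of 0.00692. Whether the counting used strand is not given in the sources used here, so reads of the 2 genes cannot be told apart in those bases.

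CENPU (ENSG00000151725.12, chromosome 4, 184694085 to 184734130, minus strand) was at 29.3, 34.1 and 30.3 CPM in the initial wild type, 28.3, 34.9 and 36.1 in the final wild type, 25.9, 27.2 and 26.9 in the initial knock-out and 28.6, 27.2 and 28.4 in the final knock-out. The initial groups were apart, and at the final harvest the wild-type replicate 1 lay within the range of the knock-out. Its average log2 fold change was -0.23 (SE 0.0675, adjusted p 0.0144), kept in each of the 12 omissions, with similar values at the initial (-0.23) and final (-0.24) harvest. It was called lower at both harvests when the final wild-type replicate 1 was left out. PRIMPOL on the opposite strand shares 14.9% of its exonic bases and had an average log2 difference of -0.0043 (adjusted p 0.978). CENPQ, the direct partner of CENPU, had -0.05 (adjusted p 0.668).

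CENPP, named after its values were seen, was low per length at 0.572 RPKM and was higher in the knock-out by 0.38 at the final harvest (SE 0.127, adjusted p 0.0482) and by 0.30 on average (SE 0.0880, adjusted p 0.0159). IPPK on the opposite strand shares 39.9% of its exonic bases and had an average log2 difference of 0.16 (adjusted p 0.082). The final call of CENPP was kept without the initial wild-type replicate 1 or 2 and lost in the other 10 omissions, with adjusted p from 0.0423 to 0.209. Its average call was lost without the initial wild-type replicate 3 (0.0515), the final wild-type replicate 3 (0.0526) or the initial knock-out replicate 1 (0.0515).

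CENPI (ENSG00000102384.14, chromosome X, 101098188 to 101166126, plus strand), which with CENP-H and CENP-K helps load new CENP-A, was at 25.3, 25.1 and 24.1 CPM in the initial wild type, 26.3, 24.1 and 24.1 in the final wild type, 23.9, 27.4 and 25.9 in the initial knock-out and 30.7, 30.1 and 28.1 in the final knock-out. The final knock-out group stood above the other 3 groups, which overlapped one another. The log2 fold change at the final harvest was 0.26 (SE 0.0817, adjusted p 0.0384), a call kept without the initial wild-type replicate 1 or 2 or the final wild-type replicate 1 and lost in the other 9 omissions, with adjusted p from 0.027 to 0.157. Its partners CENPH (-0.07, adjusted p 0.754) and CENPK (0.13, adjusted p 0.500) were not called there. CENPL and its partner CENPN, which contacts CENP-A nucleosomes, had average log2 differences of 0.07 and 0.20 (adjusted p 0.502 and 0.0558), and CENPM had 0.25 (adjusted p 0.123).

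The histone-fold proteins CENP-T, CENP-W, CENP-S and CENP-X bind centromeric DNA and form the second path to Ndc80. Their average log2 differences were -0.14, -0.21, -0.33 and -0.0053, and none was called (adjusted p 0.306, 0.225, 0.0805 and 0.978). CENPS had 66 to 115 counts a library. A readthrough gene, CENPS-CORT, shares 65.0% of its exonic bases on the same strand and held 43 counts in all 12 libraries. How reads in shared exons were counted is not given in the sources used here, so the level of CENPS may depend on it. CENPX spread widely in the initial wild type, at 51.1, 82.2 and 54.7 CPM, the middle value being replicate 2. Without that library CENPX was called higher in the initial knock-out and was the 1 member called lower in the interaction.

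The Mis12 complex links the inner kinetochore to the outer one, and none of DSN1, MIS12, NSL1 and PMF1 was called between genotypes at either harvest or on average by edgeR or by DESeq2, nor had any an unadjusted p under 0.05. The 4 average log2 differences ran from -0.0962 to -0.0057. DSN1 (ENSG00000149636.16, chromosome 20, 36751791 to 36773818, minus strand), the subunit whose phosphorylation by Aurora B strengthens the link to CENP-C, was at 55.8, 57.3 and 52.5 CPM in the initial wild type, 45.2, 43.5 and 46.0 in the final wild type, 48.9, 49.0 and 52.4 in the initial knock-out and 51.5, 49.3 and 46.3 in the final knock-out. The knock-out range lay below the wild type at the initial harvest and above it at the final one, and in neither case was the difference called (-0.14, adjusted p 0.218, and 0.13, adjusted p 0.279). The interaction was 0.27 (SE 0.106, adjusted p 0.304) and was not called.

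The Ndc80 complex makes the end-on attachment to microtubules, and its 4 subunits were not called in any of the 3 genotype comparisons by edgeR or by DESeq2. Their average log2 differences were -0.07 for NDC80, -0.0058 for NUF2, -0.0027 for SPC24 and 0.0085 for SPC25, and each of the 4 intervals lay within 1.5-fold. NDC80, the subunit with the microtubule-binding head, was at 68.5, 87.8 and 74.7 CPM in the initial wild type, 67.8, 60.1 and 61.9 in the final wild type, 67.5, 68.9 and 76.4 in the initial knock-out and 63.6, 58.4 and 65.4 in the final knock-out. At each harvest the genotypes overlapped. Per length, the mean over the 12 libraries was 19.2 RPKM for NDC80, 14.9 for its coiled-coil partner NUF2, 9.89 for SPC24 and 3.74 for SPC25, the pair that docks on Mis12. The order NDC80, NUF2, SPC24, SPC25 was the same in each of the 4 groups, and the distances between neighbours exceeded the SDs of the groups.

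**Figure D3:**
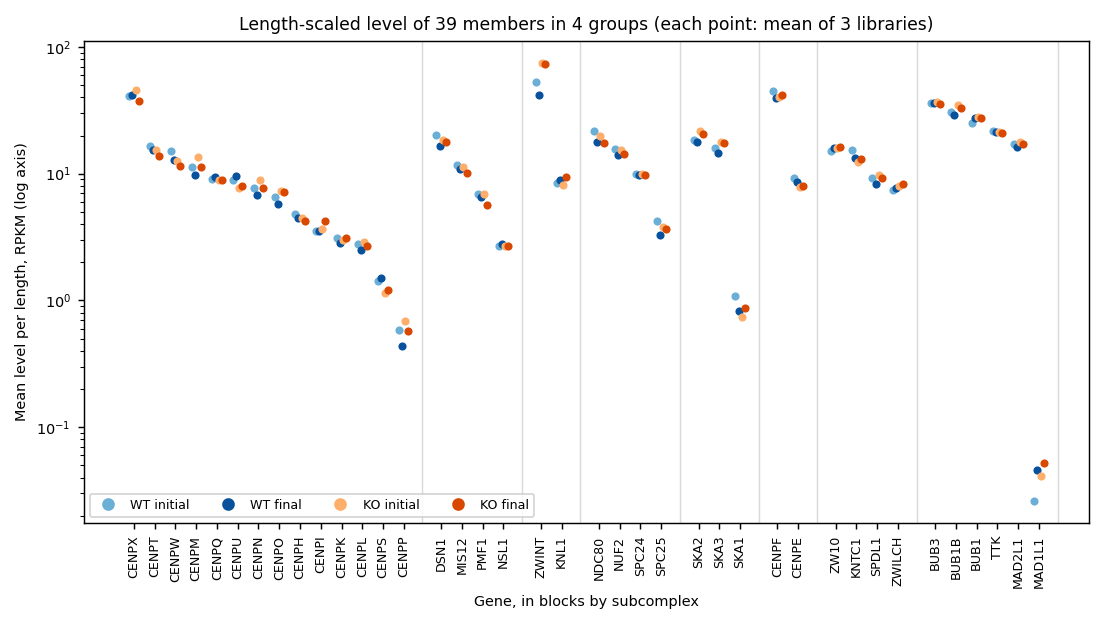
Mean RPKM of 3 libraries (log axis) for each of the 39 members, in blocks by subcomplex from the CCAN at the left to the spindle checkpoint at the right, in 4 colours for the 4 groups. The 4 points of a gene nearly coincide for most members, and levels within 1 complex spread widely, from 41.3 RPKM for CENPX to 0.572 for CENPP in the CCAN and down to 0.041 for MAD1L1 in the checkpoint block.

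Across the 39 members, the highest levels per length were those of ZWINT (60.9 RPKM), CENPF (41.6), CENPX (41.3) and BUB3 (36.2). Among the lowest were CENPS (1.32), SKA1 (0.879), CENPP (0.572) and MAD1L1 (0.041). Length here is the sum of annotated exons in the deposited table, so a gene with long exons that these cells do not use has a low value. MAD1L1 shares 43.2% of its exonic bases on the same strand with ENSG00000286192, which held 1 count in all 12 libraries, and how reads in shared exons were counted is not given in the sources used here. PMF1 likewise shares 23.3% with PMF1-BGLAP, which held 0 counts.

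The corona proteins CENP-E, the kinesin that carries chromosomes to the spindle equator, and CENP-F, a large microtubule- and dynein-binding protein, were not called between genotypes by edgeR or by DESeq2. CENPF was at 530.2, 503 and 529.9 CPM in the initial wild type, 525, 408 and 461 in the final wild type, 464, 482 and 474 in the initial knock-out and 462, 512 and 479.5 in the final knock-out. The initial groups were apart and the final ones overlapped, with log2 differences of -0.14 (adjusted p 0.328) and 0.06 (adjusted p 0.717). CENPE had -0.24 at the initial harvest (unadjusted p 0.0338, adjusted p 0.119) and -0.16 on average (adjusted p 0.0992), and it was called lower without the initial wild-type replicate 2.

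The RZZ complex (ROD, encoded by KNTC1, with ZW10 and ZWILCH) and Spindly (SPDL1) recruit dynein and MAD1 to unattached kinetochores, and ZWINT is their receptor. None of the 4 was called between genotypes by edgeR or by DESeq2. ZW10, the highest of them per length at 15.8 RPKM, was at 41.0, 47.4 and 44.5 CPM in the initial wild type, 46.3, 43.8 and 48.2 in the final wild type, 43.6, 49.3 and 47.3 in the initial knock-out and 51.1, 42.4 and 48.9 in the final knock-out. All 4 groups overlapped, and its average log2 difference was 0.06 (SE 0.0632, adjusted p 0.530). KNTC1 had -0.30 at the initial harvest (unadjusted p 0.0265, adjusted p 0.101) and -0.01 at the final one, and ZWILCH and SPDL1 had average differences of 0.09 and 0.12 (adjusted p 0.340 and 0.139).

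In the spindle checkpoint, BUB1B was called higher on average and the other 5 members, BUB1, BUB3, MAD2L1, MAD1L1 and TTK, were not called between genotypes in any of the 3 comparisons by edgeR or by DESeq2. BUB1B, named after its values were seen, encodes BUBR1, the part of the mitotic checkpoint complex that blocks the anaphase-promoting complex. It was at 133, 151 and 128 CPM in the initial wild type, 139, 123 and 129.8 in the final wild type, 146, 158 and 158 in the initial knock-out and 149.9, 144 and 146 in the final knock-out. The genotypes overlapped at the initial harvest through the wild-type replicate 2 and were apart at the final one.

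The average log2 fold change of BUB1B was 0.17 (SE 0.0576, adjusted p 0.0380). The call was kept without the initial wild-type replicate 2, the final wild-type replicate 1 or the initial knock-out replicate 1 and lost in the other 9 omissions, with adjusted p from 0.00913 to 0.121. BUB3, the WD-repeat partner of BUB1 and BUBR1, was at 296, 309 and 281 CPM in the initial wild type, 271, 301 and 309.6 in the final wild type, 285, 306 and 316 in the initial knock-out and 317, 267 and 291 in the final knock-out. The 4 groups overlapped, and its average log2 difference was 0.01 (95% interval -0.12 to 0.14, adjusted p 0.918). The kinases TTK and BUB1 had -0.04 and 0.08 (adjusted p 0.663 and 0.401), and MAD2L1, which encodes MAD2, had 0.08 (adjusted p 0.515). For MAD1L1 the average was 0.42 with an adjusted p of 0.264 at 6 to 18 counts. Its 95% interval, -0.15 to 0.99, did not exclude a large difference.

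Between the harvests, the wild type showed lower levels of DSN1 and ZWINT after 2 months, and the knock-out showed no called change. In the wild type, 2 of 39 members were called, both lower, where 6.47% of all tested genes were called, 3.05% higher and 3.42% lower. No member was called higher there by edgeR or by DESeq2, nor at an unadjusted p under 0.05. In the knock-out 0 of 39 were called, also by DESeq2, and 3 were at an unadjusted p under 0.05 (CENPI 0.20, CENPP -0.27 and PMF1 -0.27 on the log2 scale), where 1.48% of all tested genes were called, 0.837% higher and 0.64% lower. The medians of the 39 were -0.1151 (wild type) and -0.0408 (knock-out), beside 0.0056 and 0.0046 over all tested genes, and 29 of 39 members were below 0 in wild-type cells and 26 of 39 in knock-out cells.

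In the wild type DSN1 fell from 55.2 ± 2.46 to 44.9 ± 1.24 CPM, a log2 difference of -0.30 (SE 0.0748, adjusted p 0.0243), and ZWINT fell from 126 ± 14.1 to 99.2 ± 3.45 CPM, a difference of -0.34 (SE 0.0828, adjusted p 0.0195). The ranges of the harvests did not overlap for either. Both calls were lost when only the wild-type libraries were fitted (adjusted p 0.110 and 0.0997). The call of DSN1 was lost without the initial wild-type replicate 1 (0.0628), the final wild-type replicate 2 (0.132) or the final wild-type replicate 3 (0.0764). The call of ZWINT was lost without the initial wild-type replicate 2 (0.0516), the final wild-type replicate 2 (0.108) or the final wild-type replicate 3 (0.101). The number of lower members was 3 without the initial wild-type replicate 1, where NDC80 and SPC25 took the place of DSN1, 1 without the initial wild-type replicate 2, and 0 without the final wild-type replicate 2 or 3. Of all tested genes, 5.18%, 7.46%, 3.4% and 3.34% were called in these omissions. The 4 Ndc80 subunits all had values below 0 in the wild type, from -0.36 (SPC25, adjusted p 0.185) to -0.04 (SPC24, adjusted p 0.873), and none was called.

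In the interaction, the test of whether the genotype difference changed between harvests, 0 of 39 members were called by edgeR and 0 by DESeq2, where 1.28% of all tested genes were called, 0.809% higher and 0.476% lower. SKA1 (0.65), ZWINT (0.32) and DSN1 (0.27) were at an unadjusted p under 0.05 with adjusted p of 0.133, 0.257 and 0.304. For 32 of the 39 members the 95% interval of the change lay within 1.5-fold, and it did not for SKA1, SPC25, KNTC1, CENPS, CENPW, CENPX and MAD1L1. A larger genotype difference of ZWINT at the final harvest is therefore not established by the interaction test. Without the initial wild-type replicate 2, CENPX was called, lower, where 2.37% of all tested genes were called.

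Group ranges that did not overlap give a second count. Between genotypes they were apart for 8 of 39 members at the initial harvest and for 10 of 39 at the final one, where 35.5% and 33.1% of all tested genes were apart. Between harvests they were apart for 8 of 39 members in wild-type cells and 8 of 39 in knock-out cells, where 22.2% and 23.2% of all tested genes were. ZWINT and DSN1 were apart between genotypes at both harvests, with opposite signs at the 2 harvests for DSN1.

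In several libraries long and short members deviated from their group means in opposite directions, a split made after the data were seen, with 6 members of 9000 bases or more and 8 under 2500 bases. In the initial wild-type replicate 2 the long members had a median deviation from their group mean of -0.112 and the short ones of 0.227 on the log2 scale. Over all tested genes the same split gave -0.108 for the 2783 long genes and 0.049 for the 4787 short ones in that library. In the initial wild-type replicate 1 the order was reversed, with 0.133 for the long members and -0.198 for the short ones, as it was in the final wild-type replicate 1 (0.168 and -0.176) and the final knock-out replicate 2 (0.065 and -0.175). Over all tested genes the split gave 0.081 and -0.054 in the first of these 3 libraries, 0.012 and -0.018 in the second and 0.026 and 0.025 in the third. Long members were low and short ones high also in the final wild-type replicates 2 (-0.118 and 0.108) and 3 (-0.049 and 0.069) and the final knock-out replicate 3 (-0.059 and 0.085). In the initial knock-out replicates 1 and 2 the long and short members were close, at 0.017 and -0.047 and at -0.038 and -0.026.

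The short members CENPM, CENPW and CENPX were at 26.7, 17.9 and 82.2 CPM in the initial wild-type replicate 2 and at 15.2, 10.1 and 51.1 CPM in replicate 1 of the same group. The long members CENPE and KNTC1 were at 79.0 and 153 CPM in replicate 2 and at 106 and 202 CPM in replicate 1. Of the members called at the initial harvest when replicate 2 was left out, CENPM, CENPX, CENPE and KNTC1 are among these. The part of transcript length in the genotype results was not tested.

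**Figure D4:**
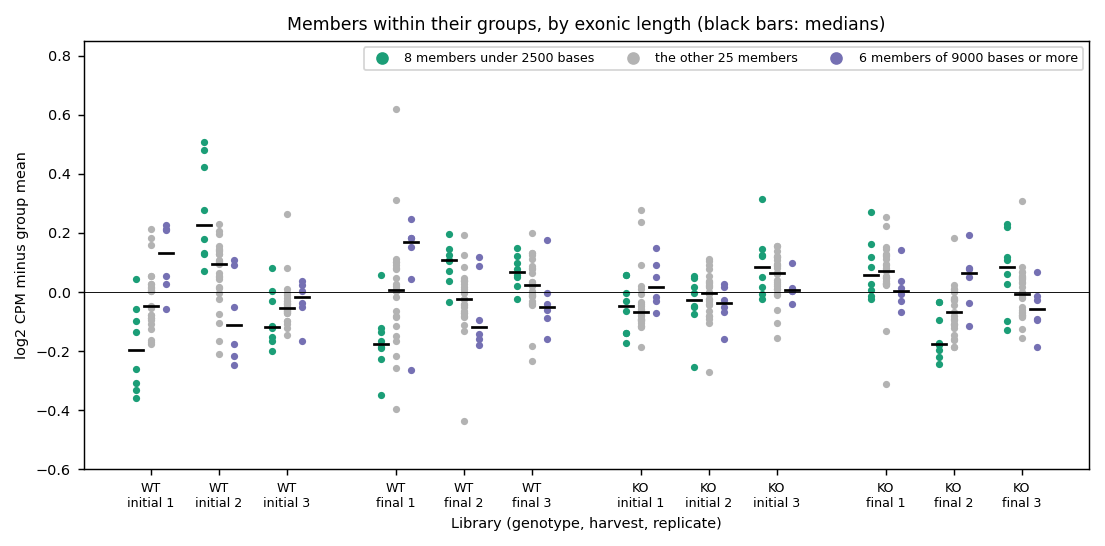
Log2 CPM of each member minus its group mean (vertical axis) in the 12 libraries (horizontal axis), with 8 members under 2500 exonic bases, the other 25 members and 6 members of 9000 bases or more in 3 colours, and black bars for medians. In the initial wild-type replicate 2 the short members have a median of 0.227 and the long ones of -0.112, and in the initial wild-type replicate 1 the medians are -0.198 and 0.133.

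Other genes that act with the kinetochore were taken as lists and are described by their counts in the average genotype comparison, where 14% of all tested genes were called higher and 16.1% lower. Of 8 genes of centromere chromatin, 1 was higher and 1 lower, and the lower one was CENPC, the CCAN protein that anchors Mis12 to CENP-A nucleosomes. CENPC fell from 30.1 ± 1.65 to 19.0 ± 0.424 CPM at the initial harvest and from 31.5 ± 0.683 to 19.5 ± 0.698 CPM at the final one, an average log2 difference of -0.68 (SE 0.0548, adjusted p 8e-08), with every knock-out library below every wild-type library. It was called lower at the initial harvest as well (-0.66, adjusted p 1.18e-05). The median of the 8 was -0.0183. Of 7 genes of the inner centromere and the chromosomal passenger complex, 3 were higher and 0 lower, with 5 at an unadjusted p under 0.05 and a median of 0.1646, CDCA8 (Borealin) having the smallest adjusted p (0.22, SE 0.0613, adjusted p 0.0136).

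Of 19 genes of the checkpoint's output, the anaphase-promoting complex and its regulators, 1 was higher, CDC23 (0.20, SE 0.0552, adjusted p 0.00970), and 0 lower, with a median of 0.0517. At the initial harvest alone 2 were called higher, CDC23 (0.31, adjusted p 0.0106) and CDC20 (0.37, adjusted p 0.0371). CDC16 was called lower there (-0.22, adjusted p 0.0284), where 8.55% of all tested genes were called higher and 11.3% lower. At the final harvest 0 of the 19 were called, where 18.5% of all tested genes were. Of 14 partners in microtubule attachment, 3 were higher and 3 lower, and DYNC1H1, the heavy chain of dynein, fell from 801 ± 57.9 to 492 ± 39.9 CPM at the initial harvest and from 953 ± 74.6 to 566 ± 38.3 CPM at the final one, an average log2 difference of -0.73 (SE 0.0691, adjusted p 5.55e-07). The median of the 14 was -0.0242.

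The next 2 lists follow the cell cycle itself, and are again set beside 14% of all tested genes higher and 16.1% lower on average. Of 18 RNAs of G2 and mitosis, 4 were called higher and 0 lower on average (median 0.0645). At each harvest alone edgeR called 0 of 18, where 19.9% (initial) and 18.5% (final) of all tested genes were called, with 3 and 4 of the 18 at an unadjusted p under 0.05. Of 16 RNAs of G1/S and S phase, 2 were higher and 0 lower (median 0.0352). HMMR, a spindle protein (0.23, adjusted p 0.0101), and RRM2, a subunit of ribonucleotide reductase (0.24, adjusted p 0.0200), had the smallest adjusted p of the 2 lists. Their part in the small differences of SKA3, BUB1B and CENPO was not tested.

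Of 18 regulators of cell cycle genes, 1 was higher on average, CDKN1A, the p21 inhibitor of cyclin-dependent kinases (0.68, SE 0.0764, adjusted p 4.21e-06), and 4 were lower, of which E2F3 had the smallest adjusted p (-0.68, SE 0.0529, adjusted p 4.67e-08). E2F3 fell from 77.4 ± 3.02 to 47.5 ± 0.568 CPM at the initial harvest and from 78.4 ± 1.54 to 49.7 ± 3.84 CPM at the final one. The other 3 lower genes were TFDP2, LIN9 and LIN37, the first a partner of E2F proteins and the others subunits of the MuvB core that binds CHR elements.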

How the data were processed

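Poly-A RNA-seq was measured in 12 libraries. The authors deposited raw counts per gene, 1 column per library, in the layout of featureCounts per the file headers, and STAR, Subread, featureCounts and hg38 are named in the submitters' processing notes. Tool versions, annotation release, strandedness and the handling of multi-mapped reads are not given in the sources used here. The 60648 genes were matched to symbols (60636 matched), and 5 lines of 1 gene broken by a spreadsheet were left out. Of the gene IDs, 37318 occur with the same version in GENCODE 29, all with identical coordinates.

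Genes were filtered with filterByExpr (minimum count 10), scaled by TMM and tested by edgeR's quasi-likelihood test (edgeR 4.0.16 with limma 3.58.1 under R 4.3.3), all 12 libraries entering 1 fit with a mean per group, with Benjamini-Hochberg adjustment over 18289 genes. The script was tested on simulated data. The biological coefficient of variation was 9.77%. Totals of 38597809 to 40017561 counts left 6 to 18 counts a library for MAD1L1 and 66 or more for each other member. RPKM used the length column of the deposited table. Alternatives were DESeq2 1.42.0, RLE factors, library totals, no filter, a minimum count of 50, fits of the compared groups, a replicate block and omission of each library. Named with values per library were, in each comparison, the called members with the 3 smallest adjusted p in each direction and, for other subcomplexes, the member highest per length. Of each list the called gene with the smallest adjusted p in the average comparison was named. CDKN1A, the other lower regulators, CDC20 and CDC16 were named beside these, chosen after their values were seen. The members and lists were chosen with earlier results of these data known.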

Additional observations from a re-analysis of the deposited data

How the results depend on the processing

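ZWINT was called higher in the knock-out at both harvests, and SKA1 lower at the initial harvest, in each alternative that was run, and no called value changed sign. Values near 0 did: with single libraries left out, the member medians ran from -0.0418 to 0.034 at the initial harvest, from -0.0117 to 0.0258 on average and from -0.0302 to 0.0735 in the interaction, and the average differences of BUB3 (-0.0207 to 0.0428) and CENPF (-0.0846 to 0.0056) crossed 0. The final harvest gave 2 higher members with no filter, with only the compared groups and with the replicate block, CENPO and ZWINT. Of all tested genes, 9.14%, 17.6% and 18% were called there. DESeq2 and a minimum count of 50 each added SKA3 at the final harvest (5 members called), CENPI and CENPN on average (8) and CENPP over time in the wild type (3). Of all tested genes, DESeq2 called 19.3%, 30.7% and 8.27% in these comparisons, and a minimum count of 50 gave 21.2%, 33.9% and 8.27%. Library totals added SKA3 and BUB1B at the final harvest (6 members) and CENPI and CENPN on average (8), where 19.1% and 29.9% of all tested genes were called. The initial harvest gave 2 lower members with no filter, where 9.68% of all tested genes were called. On average 7 members were called with no filter, where 14.8% of all tested genes were. SKA2 and CENPM were added there and BUB1B was lost. Time in the wild type gave 5 lower members with library totals (median -0.2006), 1 with no filter and 0 with only the compared groups, and time in the knock-out gave 1 with only the compared groups. Of all tested genes, 8.92%, 3.45%, 3.32% and 4.16% were called, in that order. The interaction median was 0.0844 with library totals. With the initial wild-type replicate 2 and the final knock-out replicate 2 both left out, chosen after seeing the data, there were 5 higher and 3 lower members at the initial harvest and 8 higher and 3 lower on average. Of all tested genes, 26.8% and 33.9% were called in these 2 comparisons. Omission of single libraries gave 3 to 8 higher and 1 to 2 lower members on average, 1 to 5 and 0 to 1 at the final harvest (median -0.009 to 0.0592), 1 to 5 and 1 to 3 at the initial harvest, 0 to 3 lower over time in the wild type and 0 to 1 lower in the interaction. The share of all tested genes called also moved, from 24.9% to 32.2%, 13.7% to 20.8%, 12.9% to 24.6%, 3.34% to 7.46% and 0.662% to 2.37%, in that order. The cause of these changes was not tested.

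No pairing of the libraries by replicate number was seen: 6 of 18 same-numbered pairs had a correlation of deviations over 0.1 (-0.3581 to 0.2377), and 1 of 12 libraries correlated best with its own number. Deviations within groups of 3 libraries cannot show whether same-numbered libraries were handled together. With the block, BUB1B on average had an adjusted p of 0.0559 in edgeR's quasi-likelihood test, and CENPI and CENPP at the final harvest had 0.0570 and 0.0588.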
